A study of Mus musculus with 6 samples.

Results

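Expression of 10 genes was examined in Baf155-deficient skeletal muscle: *Atf3*, a stress-inducible factor of the ATF/CREB family, and 9 genes of the immediate early response (*Fos*, *Fosb*, *Jun*, *Junb*, *Egr1*, *Ier2*, *Ier3*, *Myc* and *Btg2*). The genes were picked by symbol from a table of 20632 genes, with *Atf3* already known to be lower in the mutant. Their genotype differences and counts of calls are therefore a description that follows the choice, not a test of it. Of the 10 genes, 9 passed the filter on low counts and *Fosb* did not, so its values come from a fit without the filter.

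Immediate early genes are transcribed within minutes of a stimulus from factors that the cell already holds, without new protein synthesis. FOS proteins pair with JUN proteins to form the AP-1 dimer, EGR1 and MYC bind their own sites, and ATF3 can pair with JUN proteins or with itself and often represses its targets. In skeletal muscle the family is known for its response to contraction, stretch and injury.

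RNA came from hind limb muscle (quadriceps, soleus, gastrocnemius, extensor digitorum longus and tibialis anterior) of unexercised male C57BL/6 mice aged 3 months, with 1 library per mouse. The control mice (Baf155 WT, given as wild type in the labels, n = 3) carried the floxed *Baf155* allele without Cre, and the mutants (Baf155 ΔMF, given as Baf155 -/- in the labels, n = 3) carried the same floxed allele with *MCK*-Cre. Baf155, encoded by *Smarcc1*, is a subunit of the SWI/SNF chromatin remodeling complex. *MCK* (muscle creatine kinase) drives Cre in skeletal and cardiac muscle fibers, so vessels, connective tissue and blood cells of the sampled muscle keep the gene. In whole tissue, fewer cells of a type and less RNA per cell cannot be told apart.

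Depth was 10601293 to 12469335 counts in Baf155 WT and 8426022 to 10003421 in Baf155 ΔMF, without overlap. Values are CPM, counts of a gene relative to the total of its library after TMM scaling. *Smarcc1* was 23.4, 19.5 and 17.0 CPM in the Baf155 WT mice and 7.05, 6.54 and 7.72 CPM in the Baf155 ΔMF mice, with a log2 fold change of -1.49 ± 0.15 (SE) and an adjusted p of 0.00907 in edgeR's quasi-likelihood test. The summed CPM of 8 muscle fiber markers was 131697 to 137449 in Baf155 WT and 125436 to 130241 in Baf155 ΔMF, also without overlap. The sample titles carry a prefix whose meaning the labels do not give. MS13 holds 1 Baf155 WT and 2 Baf155 ΔMF mice, MS15 holds 2 Baf155 WT mice and MS14 holds 1 Baf155 ΔMF mouse, so genotype is confounded with prefix in the mice outside MS13, where the effects of both cannot be told apart. The control MS13-3 stood apart from the other two controls, with a chi-square per gene of 28.1 and 38.8 against them and 6.74 between them. Every list of 3 values below follows the order MS13-3, MS15-2, MS15-3 for Baf155 WT and MS13-1, MS13-2, MS14-2 for Baf155 ΔMF.

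*Atf3* was at a like level in the 3 controls and lower in all mutants. It was 21.5, 21.6 and 20.6 CPM in Baf155 WT (221, 282 and 231 counts) and 9.93, 10.1 and 13.3 CPM in Baf155 ΔMF (93, 97 and 114 counts). Every mutant lay below every control, and the 3 controls differed from each other by less than the distance between the genotypes. The means were 21.2 ± 0.529 and 11.1 ± 1.92 CPM (SD, n = 3 each), a log2 fold change of -0.94 ± 0.13 (SE) or 47.8% less. The coefficient of variation was 2.49% in Baf155 WT and 17.3% in Baf155 ΔMF. The control value is below what counting error alone gives at 221 to 282 counts. With n = 3 each, the spreads of the genotypes cannot be compared. Within the MS13 mice alone the difference in mean log2 CPM was -1.09. Leaving out any single mouse gave log2 fold changes between -1.08 and -0.86. *Atf3* lies on chr1:191170296-191218039 (GRCm38, minus strand), and GENCODE lists 3 transcript starts and a small RNA gene on the opposite strand inside it. The deposited counts are per gene and do not separate the starts.

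**Figure D1:**
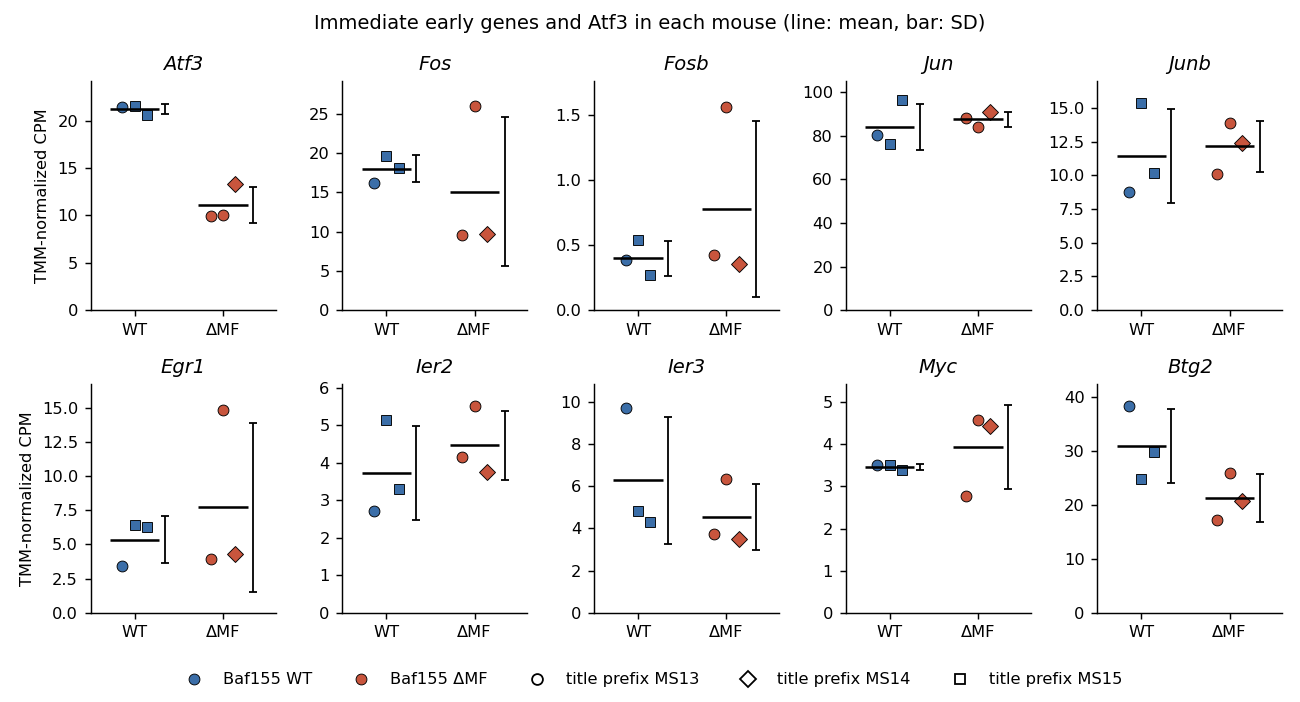
TMM-normalized CPM (y axis, from 0, a separate scale per gene) of *Atf3* and the 9 immediate early genes in each mouse, for Baf155 WT (blue) and Baf155 ΔMF (red), with marker shape giving the title prefix, lines giving means and bars giving SD. *Atf3* is the gene whose 3 red points all lie below its 3 blue points, and 1 red circle, mouse MS13-2, is the highest point for *Fos*, *Fosb*, *Egr1*, *Ier2* and *Myc*.

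The FOS partners of AP-1 did not share the separation seen for *Atf3*. *Fos* was 16.2, 19.7 and 18.1 CPM in Baf155 WT and 9.50, 26.0 and 9.71 CPM in Baf155 ΔMF. The mutants spanned both sides of the controls: MS13-1 and MS14-2 lay below all 3 controls and MS13-2 above them. The means were 18.0 ± 1.72 and 15.1 ± 9.44 CPM (SD, n = 3 each), with a log2 fold change of -0.25 ± 0.31 (SE). This value rested on 1 library: without MS13-2 the log2 fold change of *Fos* was -0.91. Fitting prefix as a term beside genotype, or fitting only the MS13 mice, turned it to 0.13. These fits make the same comparison, since only MS13 holds both genotypes, and MS13-3 is the only control in it. The difference in mean log2 CPM of *Fos* in the same mice was -0.04, so the sign there depends on the measure. *Fosb* was near the detection limit in all mice, with 4, 7 and 3 counts in Baf155 WT and 4, 15 and 3 counts in Baf155 ΔMF, and MS13-2 again held the highest count. Its log2 fold change was 0.96 ± 0.62 (SE), and -0.050 without MS13-2.

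The JUN partners were close in both genotypes. *Jun*, the main JUN protein of AP-1, was 80.2, 76.1 and 96.1 CPM in Baf155 WT and 88.1, 83.9 and 90.7 CPM in Baf155 ΔMF. All 3 mutants lay inside the range of the controls, and the log2 fold change was 0.06 with a 95% interval from -0.17 to 0.28. *Junb*, which forms AP-1 dimers of weaker activity, was 8.74, 15.4 and 10.2 CPM against 10.1, 13.9 and 12.4 CPM. Its mutants also lay inside the control range, with a log2 fold change of 0.08 and a 95% interval from -0.37 to 0.53. An antisense gene, *Junos*, overlaps *Jun*, and *Prdx2* on the opposite strand overlaps *Junb*. The library kit keeps strand, but whether the counting used it is not given in the sources used here, so reads of these pairs cannot be told apart.

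The other transcription factors of the group varied more among mice than between genotypes. *Egr1*, a zinc finger factor induced through serum response factor, was 3.40, 6.43 and 6.25 CPM in Baf155 WT and 3.95, 14.8 and 4.33 CPM in Baf155 ΔMF. The high value was again MS13-2, while the other two mutants lay inside the control range. The log2 fold change of *Egr1* was 0.52 ± 0.44 (SE), and leaving out MS13-2 turned it to -0.38. *Myc*, which drives growth and ribosome genes, was 3.50, 3.52 and 3.39 CPM against 2.78, 4.57 and 4.44 CPM, with mutants on both sides of the controls. Its log2 fold change was 0.18, with a 95% interval from -0.32 to 0.67.

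The remaining 3 genes code for regulators of other kinds. *Ier2*, a nuclear protein, was 2.72, 5.13 and 3.30 CPM in Baf155 WT and 4.16, 5.50 and 3.74 CPM in Baf155 ΔMF, with a log2 fold change of 0.25 ± 0.26 (SE). *Ier3*, a regulator of cell survival, was 9.72, 4.82 and 4.28 CPM against 3.74, 6.33 and 3.51 CPM, with a log2 fold change of -0.44 ± 0.33 (SE). The highest *Ier3* value belonged to the control MS13-3, and without this mouse the log2 fold change was -0.0004. Without the mutant MS13-2 it was -0.77, and the mutants MS13-1 and MS14-2 lay below all controls. *Btg2*, an antiproliferative cofactor of mRNA deadenylation, was 38.3, 24.8 and 29.8 CPM against 17.2, 26.0 and 20.8 CPM. Its log2 fold change of -0.53 ± 0.18 (SE) was the nearest to that of *Atf3* among the other 9 genes, but the mutant MS13-2 lay above the control MS15-2. Without the control MS13-3, the log2 fold change of *Btg2* was -0.35, and without the mutant MS13-2 it was -0.70. For *Btg2* too, MS13-1 and MS14-2 lay below all controls. Among the MS13 mice alone, differences in mean log2 CPM were -0.04 for *Fos*, 0.10 for *Jun*, 0.43 for *Junb*, 1.14 for *Egr1*, 0.77 for *Ier2*, -0.97 for *Ier3*, 0.03 for *Myc* and -0.85 for *Btg2*.

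The median log2 fold change of the 9 genes other than *Atf3* was 0.08, beside -0.00095 over all 12116 genes tested. None of the 9 filtered genes, *Atf3* included, had an adjusted p under 0.05 in edgeR, where 0.0248% of all genes tested did. At an unadjusted p under 0.05 in edgeR there were 2 (*Atf3* and *Btg2*), beside 7.95% of all genes. *Atf3*, the gene the choice was made on, was 1 of the genes with an adjusted p under 0.05 in DESeq2 (0.182% of all genes) and in limma-voom (0.0413%), which repeats the choice. With the limits of an unadjusted p under 0.01 and a fold under 0.7 or over 1.4, 1 of 9 was called, beside 1.11% of all genes. It was the 1 called lower (0.809% of all genes), and 0 of 9 were called higher (0.305% of all genes). All 3 mutants lay below all 3 controls for 1 of 9 genes, beside 5.57% of all genes, and above them for 0 of 9, beside 5.2%. The choice of genes used this contrast, so these counts are a description, and 3 mice against 3 cannot give an exact permutation p below 0.1.

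The relation between *Atf3* and the other genes was also taken within each library, where a ratio does not depend on how libraries are scaled. The log2 ratio of *Atf3* to the mean log2 CPM of the other 9 genes was 1.48, 1.33 and 1.44 in Baf155 WT and 0.64, -0.18 and 0.95 in Baf155 ΔMF. All mutants lay below all controls, with means of 1.42 ± 0.0815 and 0.47 ± 0.583 (SD, n = 3 each). The difference was -0.94 in all mice, -1.25 within the MS13 mice and -0.62 without MS13-2. *Atf3* was chosen as lower in the mutants, so the direction of this difference follows the choice. The mean log2 CPM of the other 9 genes itself was 2.95, 3.12 and 2.94 in Baf155 WT and 2.70, 3.54 and 2.80 in Baf155 ΔMF. MS13-1 and MS14-2 lay below all controls and MS13-2 above them. The close genotype means, 3.00 in Baf155 WT and 3.01 in Baf155 ΔMF, therefore rested on MS13-2.

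Gene by gene, the range of the ratio did not overlap between genotypes for 6 of the 9 genes and overlapped for 3. The share over all genes tested was not taken, so this count cannot be read as particular to these genes. Since *Atf3* was chosen as lower in the mutants, its ratio to a gene at a like level in both genotypes is lower by construction. The ratio of *Atf3* to *Jun* was 0.268, 0.283 and 0.214 in Baf155 WT and 0.113, 0.120 and 0.147 in Baf155 ΔMF. The ratio to *Myc*, which had only 26 to 46 counts per mouse, was 6.14, 6.13 and 6.08 against 3.58, 2.2 and 3.00. In both cases no mutant reached the controls, and the same held for the ratios to *Junb*, *Egr1*, *Ier2* and *Fosb*, the last resting on 3 to 15 counts. The ratio of *Atf3* to *Fos* was 1.32, 1.1 and 1.14 in Baf155 WT and 1.04, 0.388 and 1.37 in Baf155 ΔMF. In MS13-1 and MS14-2 *Atf3* and *Fos* were both low and their ratio was near that of the controls, whereas in MS13-2 *Fos* was high and *Atf3* was not. The ratio to *Btg2* was 0.561, 0.870 and 0.692 against 0.578, 0.388 and 0.640, and the ratio to *Ier3* ranged from 2.21 to 4.81 against 1.59 to 3.8, so the genotypes overlapped in both.

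**Figure D2:**
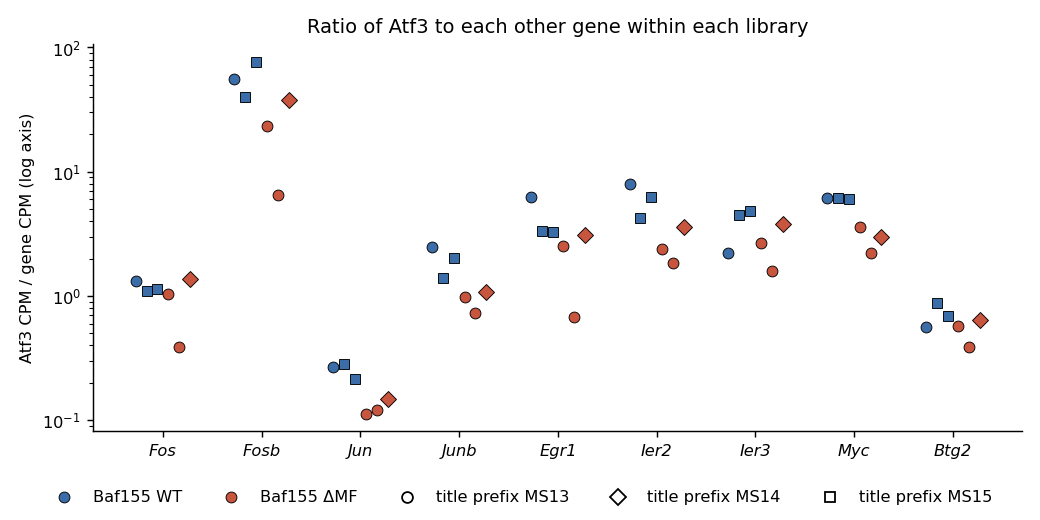
Ratio of *Atf3* CPM to the CPM of each of the other 9 genes (y axis, logarithmic) within each library, for Baf155 WT (blue) and Baf155 ΔMF (red), with marker shape giving the title prefix. The red points lie below the blue points for *Fosb*, *Jun*, *Junb*, *Egr1*, *Ier2* and *Myc* and overlap them for *Fos*, *Ier3* and *Btg2*.

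Promoter sequences are shown for *Atf3* and for *Fos* and *Btg2*, the other two members whose window holds a core of the cyclic AMP response element, a site bound by ATF and CREB factors. Each is the 250 bases before the RefSeq start (GRCm38.p6), 5′ to 3′ on the strand of the gene: chr1:191183334-191183583 (minus) for *Atf3*, chr12:85473640-85473889 (plus) for *Fos* and chr1:134079156-134079405 (minus) for *Btg2*. Capitals mark the motif matches described after them.
Atf3: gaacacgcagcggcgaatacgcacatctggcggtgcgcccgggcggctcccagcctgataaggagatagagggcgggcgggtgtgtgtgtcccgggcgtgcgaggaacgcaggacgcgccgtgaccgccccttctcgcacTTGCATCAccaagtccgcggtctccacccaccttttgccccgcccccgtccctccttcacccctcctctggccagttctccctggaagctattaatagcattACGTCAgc
Fos: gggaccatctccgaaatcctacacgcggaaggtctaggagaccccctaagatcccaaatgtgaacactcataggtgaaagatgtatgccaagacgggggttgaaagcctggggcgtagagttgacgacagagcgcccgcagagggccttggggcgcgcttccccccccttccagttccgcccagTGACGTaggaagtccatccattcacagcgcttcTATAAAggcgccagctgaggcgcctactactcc
Btg2: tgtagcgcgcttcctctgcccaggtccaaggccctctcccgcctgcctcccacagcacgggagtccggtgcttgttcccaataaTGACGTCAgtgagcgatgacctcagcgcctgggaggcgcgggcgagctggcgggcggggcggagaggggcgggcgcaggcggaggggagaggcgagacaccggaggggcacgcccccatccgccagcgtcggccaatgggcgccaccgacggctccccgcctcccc

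The motifs searched on both strands were the cyclic AMP response element TGACGTCA, its core TGACGT, the AP-1 site TGANTCA, the CArG box of serum response factor, the E-box CACGTG, the TATA box TATAAA, the STAT site TTCNNNGAA and the C/EBP-ATF composite element TGATGNAA. The core is part of the full element, so their matches overlap, and it was added after the sequences were seen. The *Atf3* window held the core as ACGTCA, 8 bases before the start, and the composite element as TTGCATCA, 110 bases before it. The last bases of this window, with part of the ACGTCA match, lie in the first exon of a GENCODE transcript that starts slightly upstream. *Fos* held the core 66 bases and the TATA box 33 bases before its start, and *Btg2* held the full element 166 bases before its start.

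Promoters were searched for 7 of the 10 genes. Those of *Egr1*, *Ier2* and *Myc* were not searched, so the counts below say nothing about them. The core stood in 3 of these 7, beside 6.47% of all 32851 promoters of the same length, and the full element in 1 of 7, beside 1.55%. The composite element stood in 1 of 7 (3.45% of all promoters) and the TATA box in 1 of 7 (12.4%). The AP-1 site (6.75%), the CArG box (1.47%), the E-box (6.02%) and the STAT site (7.02%) stood in none of the 7 windows. A match describes letters and is not a bound site, and no match says only that these letters are not in the window. The printed *Atf3* window belongs to 1 of its 3 starts.

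Levels can be compared between genes only per length of exon. In Baf155 WT the mean CPM per kilobase of exon was 26.4 for *Jun*, 11.3 for *Btg2*, 9.85 for *Atf3*, 7.65 for *Fos*, 5.55 for *Ier3*, 4.97 for *Junb*, 2.44 for *Ier2*, 1.28 for *Myc*, 1.19 for *Egr1* and 0.0636 for *Fosb*. Of the neighbors in this order, *Btg2* and *Atf3*, *Fos* and *Ier3*, *Ier3* and *Junb*, and *Myc* and *Egr1* overlapped across the control mice. In Baf155 ΔMF *Atf3*, at 5.16 CPM per kilobase, moved from the third to the fifth place, behind *Jun* (27.5), *Btg2* (7.77), *Fos* (6.4) and *Junb* (5.28), and it overlapped *Fos*, *Junb* and *Ier3*. The estimates of all 10 genes were whole numbers in all 6 mice.

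Positions on GRCm38 were chr12:85473890-85477273 (*Fos*), chr7:19302696-19310051 (*Fosb*), chr4:95049034-95052222 (*Jun*), chr8:84974484-84978718 (*Junb*), chr8:84661331-84662852 (*Ier2*), chr17:35821684-35822923 (*Ier3*), chr15:61985391-61990374 (*Myc*) and chr1:134075170-134079120 (*Btg2*). Several of the other 9 genes varied far more within a genotype than most genes. The SD of log2 CPM within genotypes stood at the 99.3 percentile of all genes tested for *Egr1*, at 97.7 for *Fos* and at 96.9 for *Ier3*. *Fosb* stood at 98.7, *Ier2* at 90.0, *Junb* at 86.9, *Btg2* at 83.8 and *Myc* at 79.2. *Atf3* stood at 52.6 and *Jun* at 35.2, so *Atf3* and *Jun* varied about as much as other genes. The ranking was not matched for count, which was low for several of the 10 genes. The mutant MS13-2 held the highest value of 5 of the 9 genes other than *Atf3*, and the mutant MS13-1 held the highest of 0. On deviations from the genotype means over the 6 mice, Pearson's r was 0.955 between *Fos* and *Egr1*, 0.945 between *Fos* and *Fosb* and -0.435 between *Fos* and *Atf3*. These points share library and depth, and the high values of MS13-2 weigh on all of them.

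The genes whose pattern over the 6 mice was most like that of *Atf3* were *Xbp1* (Pearson's r 0.997 on log2 CPM), *Trp53rka* (0.988), *Med26* (0.984), *Agpat4* (0.983) and *Ddx49* (0.981). *Xbp1*, a factor of the unfolded protein response, was 80.2, 81.3 and 79.1 CPM in Baf155 WT and 64.0, 63.9 and 70.9 CPM in Baf155 ΔMF, with MS14-2 the highest mutant as for *Atf3*. The genes most like the mean of the other members were *Nudt21* (0.977), *Becn1* (0.971), *Nod2* (0.969), *Snapc2* (0.967) and *Mfsd4b1* (0.966). *Nudt21*, a subunit of a pre-mRNA cleavage factor, was 10.8, 12.2 and 12.0 CPM in Baf155 WT and 9.40, 14.1 and 10.3 CPM in Baf155 ΔMF, highest in MS13-2. After subtracting genotype means, the leading genes were *Ddr2*, *Angptl7*, *Entpd7*, *Slc2a4* and *Matn2* for *Atf3* (r from 0.995 to 0.997) and *Timm8a1*, *Ext1*, *Ginm1*, *Abhd16a* and *Cbr4* for the others (r from 0.981 to 0.995). These are the highest of 12116 genes over 6 libraries and are given as a description.

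Other AP-1 subunits showed no change past the limits, with 5 of 9 tested. *Fosl2*, a FOS relative, was 26.6, 22.9 and 29.4 CPM in Baf155 WT and 21.3, 21.8 and 24.6 CPM in Baf155 ΔMF (log2 fold change -0.22, edgeR adjusted p = 0.633). *Jund*, the JUN protein of resting cells, had a log2 fold change of -0.24 (edgeR adjusted p = 0.650), *Jdp2* of -0.44 and *Atf7* of 0.31. The genotypes overlapped for all 5, and 0 of 5 passed an unadjusted p of 0.05 in edgeR or an adjusted p of 0.05 in edgeR, DESeq2 or limma-voom. *Fosl1* had 5 counts in 1 control and 0 in the other mice.

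Among 40 other rapid response genes, 34 were tested, and 2 were past the limits lower (beside 0.809% of all genes tested) and 0 higher. Without the control MS13-3 the 2 became 4, while the count over all genes rose from 135 to 727. Without the mutant MS13-2 the 2 also became 4, while the count over all genes fell to 69. The median log2 fold change was -0.14, beside -0.00095 over all genes, with 23 of 34 below 0. All mutants lay below all controls for 6 of 34 genes and above them for 2, beside 5.57% and 5.2% of all genes. The list was chosen with earlier results of these data known, so its counts follow the choice and are a description, not a test. *Nfil3*, a bZIP repressor, was 22.5, 32.1 and 62.5 CPM in Baf155 WT and 13.4, 13.6 and 15.3 CPM in Baf155 ΔMF (log2 fold change -1.47 ± 0.30 SE, edgeR adjusted p = 0.367). *Gadd45g*, a stress-induced growth arrest gene, was 66.4, 42.5 and 66.0 CPM against 38.6, 34.1 and 25.5 CPM (log2 fold change -0.83 ± 0.18 SE, edgeR adjusted p = 0.422). Both were lower in all mutants, within the MS13 mice by a difference in mean log2 CPM of -0.73 for *Nfil3* and -0.87 for *Gadd45g*. *Dusp1*, a MAP kinase phosphatase of the same rapid response, lay the other way in all mutants, at 60.2, 69.2 and 62.1 CPM against 72.6, 105.5 and 84.8 CPM, short of the fold limit (log2 fold change 0.46 ± 0.13 SE, edgeR adjusted p = 0.601). No gene of this list had an adjusted p under 0.05 in edgeR or limma-voom, DESeq2 called 1 (*Gadd45g*), and 9 of 34 had an unadjusted p under 0.05 in edgeR (7.95% of all genes), 7 of them lower (4.6% of all genes).

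The relatives of *Egr1* were too low to be tested, and the NR4A receptors overlapped between genotypes. *Nr4a1*, an orphan nuclear receptor, was 115.3, 73.1 and 82.0 CPM in Baf155 WT and 91.3, 97.1 and 96.1 CPM in Baf155 ΔMF, with all mutants inside the control range (log2 fold change 0.08, edgeR adjusted p = 0.894). *Nr4a3* was 21.9, 5.51 and 6.87 CPM against 5.34, 2.80 and 8.30 CPM (log2 fold change -1.05 ± 0.51 SE, edgeR adjusted p = 0.622). Its highest value belonged to the control MS13-3. *Nr4a2* had a log2 fold change of -0.29. *Egr2* had 10, 11 and 14 counts against 8, 15 and 7, and *Egr3* had 7, 7 and 3 against 9, 5 and 9. *Egr4* and *Npas4* had 0 counts in all mice, where 3 counts, taken as the floor, equal 0.230 to 0.351 CPM.

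Of 33 genes for upstream kinases and factors, such as the MAP kinases and serum response factor, 32 were tested and none was past the limits. Their median log2 fold change was 0.06. The smallest p-values belonged to *Map2k2* (log2 fold change -0.22), *Map2k7* (0.19) and *Atf1* (0.24). At an unadjusted p under 0.05 in edgeR there was 1 of 32 (*Map2k2*), beside 7.95% of all genes. None had an adjusted p under 0.05 in edgeR, DESeq2 or limma-voom. Among 10 MYC partners and relatives, 7 were tested and none was past the limits, with a median of 0.10 and *Mxd4* (0.31), *Mlx* (-0.24) and *Mnt* (0.25) leading. At an unadjusted p under 0.05 in edgeR there was 1 of 7 (*Mxd4*), beside the same 7.95% of all genes. None had an adjusted p under 0.05 with any of the 3 tools.

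*Atf3* is also a known target of ATF4 in the integrated stress response, so 16 genes of ATF4 and stress signaling were examined, of which 13 were tested. *Atf4* itself was 197.6, 207.6 and 212.8 CPM in Baf155 WT and 182.8, 200.9 and 180.3 CPM in Baf155 ΔMF, with overlap (log2 fold change -0.13, edgeR adjusted p = 0.684). *Ddit3*, which codes for CHOP, was 10.01, 13.5 and 12.1 CPM against 9.61, 10.2 and 12.98 CPM, also with overlap (log2 fold change -0.13, edgeR adjusted p = 0.826). *Chac1*, an ATF4-responsive enzyme of glutathione breakdown, was 113.1, 84.9 and 52.3 CPM in Baf155 WT and 33.7, 31.1 and 27.95 CPM in Baf155 ΔMF. It was the 1 gene of the list past the limits, lower in all mutants (log2 fold change -1.43 ± 0.22 SE, edgeR adjusted p = 0.0785, -1.80 within the MS13 mice as a difference in mean log2 CPM). *Xbp1* (log2 fold change -0.28 ± 0.09 SE, edgeR adjusted p = 0.601) and *Hspa5*, an endoplasmic reticulum chaperone (-0.26), were lower in all mutants by less than the fold limit, and *Cebpb* was at -0.43 with overlap.

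The median log2 fold change of the ATF4 and stress list was -0.13, with 10 of 13 below 0. This list too was chosen with earlier results of these data known, so its counts are a description, not a test. Past the limits, 1 of 13 was lower (0.809% of all genes) and 0 higher. Without the control MS13-3 the 1 became 2, while the count over all genes rose from 135 to 727. Without the mutant MS14-2 the 1 also became 2, with 167 over all genes. All mutants lay below all controls for 3 of 13 genes and above them for 1 (beside 5.57% and 5.2% of all genes). The 1 above was *Sesn2*, a stress-induced regulator of mTORC1, at 2.43, 2.37 and 0.982 CPM in Baf155 WT and 2.78, 2.80 and 2.81 CPM in Baf155 ΔMF (log2 fold change 0.53, edgeR adjusted p = 0.656). No gene of it had an adjusted p under 0.05 in edgeR or limma-voom, DESeq2 called 1 (*Chac1*), and 4 of 13 had an unadjusted p under 0.05 in edgeR (7.95% of all genes), all lower (4.6% of all genes).

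**Figure D3:**
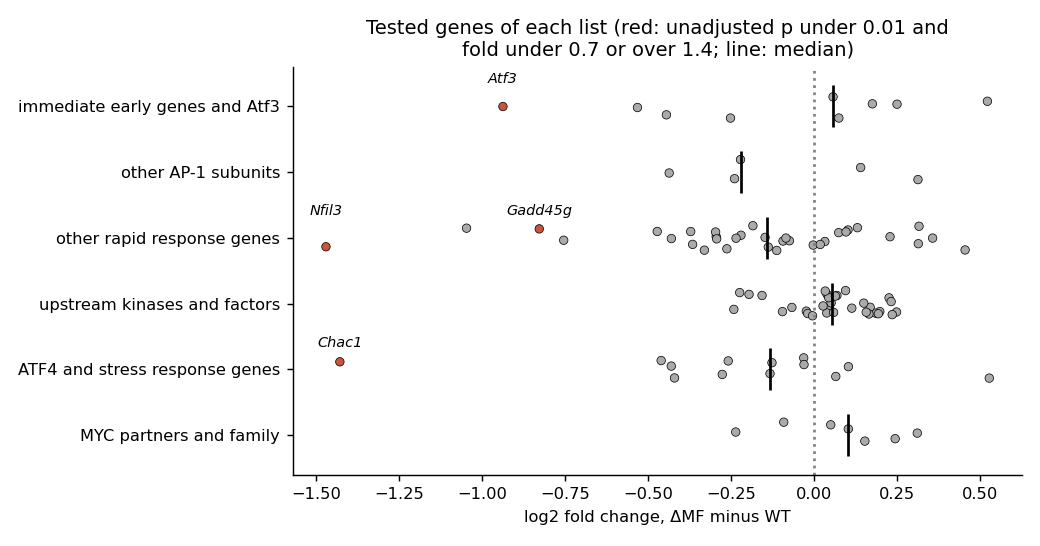
Log2 fold change in Baf155 ΔMF minus Baf155 WT (x axis) of the tested genes of 6 lists (y axis), with vertical lines giving list medians and red points marking an unadjusted p under 0.01 with a fold under 0.7 or over 1.4. Red points are *Atf3*, *Nfil3*, *Gadd45g* and *Chac1*, all below 0, and the medians lie between -0.22 and 0.10.

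Other cells of the muscle also make immediate early genes, so their markers were read beside the group. The marker lists were also chosen with earlier results of these data known, so their counts are a description. The 10 leukocyte and macrophage markers all had log2 fold changes below 0 (median -0.97), none past the limits, and 9 of 10 had an unadjusted p under 0.05 in edgeR (7.95% of all genes), with 0 at an adjusted p under 0.05 in edgeR, DESeq2 or limma-voom. Their summed CPM was 106, 334 and 267 in Baf155 WT and 99.8, 98.1 and 172 in Baf155 ΔMF. The control MS13-3, the library that stands apart from the other two controls, had a marker sum near that of the mutants MS13-1 and MS13-2, and its *Atf3* level was 21.5 CPM. *Ptprc*, the pan-leukocyte marker CD45, was 7.09 CPM in MS13-3 and 8.44 and 7.79 CPM in the MS13 mutants.

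**Figure D4:**
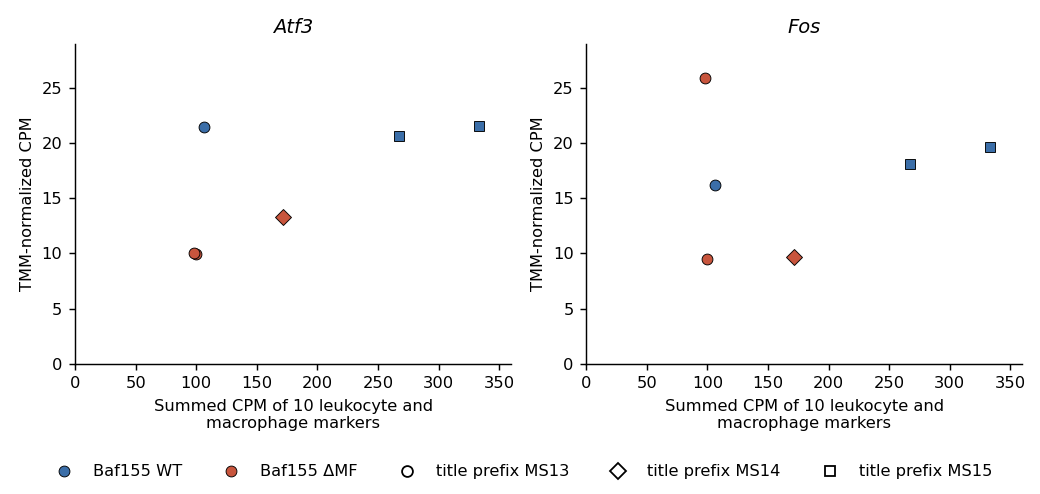
CPM of *Atf3* (left) and *Fos* (right) against the summed CPM of 10 leukocyte and macrophage markers (x axis), 1 point per mouse, Baf155 WT in blue and Baf155 ΔMF in red, with marker shape giving the title prefix. The blue circle, at a marker sum of 106, lies near the red circles on the x axis and at 21.5 CPM of *Atf3*, where the red circles (98.1 and 99.8, overlapping) lie at 9.93 and 10.1 CPM.

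Of 6 neutrophil markers only *Cxcr2* was tested (log2 fold change 0.34), and the others were too low for it. Mean CPM in Baf155 WT and Baf155 ΔMF was 0.40 and 0.15 for *S100a8*, 0.29 and 0.10 for *S100a9* and 1.21 and 0.87 for *Csf3r*. *Retnlg* was higher in Baf155 ΔMF, at 0.14 against 0 CPM, and *Ly6g* was at 0 in all mice. All 8 endothelial markers had log2 fold changes above 0 (median 0.28), with summed CPM of 331, 256 and 260 in Baf155 WT and 331, 352 and 327 in Baf155 ΔMF. All 5 red blood cell markers lay below 0 (median -0.70), with sums of 777, 1227 and 622 against 371, 504 and 805, which overlapped. In the remaining lists the sums overlapped between genotypes for fibroblast and progenitor, satellite cell, smooth muscle and pericyte, adipocyte and Schwann cell markers. Fibroblast genes parted: *Dcn*, *Lum* and *Ly6a* were lower (unadjusted p under 0.05 in edgeR), while *Col1a1* (0.36) and *Col3a1* (0.31) lay above 0. At that limit (7.95% of all genes) there were 3 of 6 fibroblast, 3 of 5 red blood cell, 2 of 8 endothelial and 2 of 8 muscle fiber markers. It was 1 of 4 each for smooth muscle and adipocyte markers, and 0 for satellite and Schwann cell markers. Past the limits were *Adipoq*, lower (log2 fold change -0.86), and *Myh1* among the muscle fiber markers, higher (0.49). The part of these markers in the values of *Atf3* and the immediate early genes was not tested.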

How the data were processed

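Total RNA of hind limb muscle from 6 mice (TruSeq Stranded Total RNA, 1 library each) was sequenced by the authors, who deposited expected counts per gene, estimated read numbers without normalization. The submitters' processing notes name CASAVA 1.8.2, cutadapt 1.10, Bowtie2 2.2.7, TopHat2 2.1.1, RSEM 1.2.30, limma, mm10 and GRCm38, without roles; the annotation is not given in the sources used here. A column of totals was not used.

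Counts were rounded (14.1% of genes had a fractional estimate) and fitted on the whole table in R 4.3.3 with edgeR 4.0.16 (filterByExpr, minimum count 10, minimum total 15, leaving 12116 genes; TMM; quasi-likelihood F test; Benjamini-Hochberg over all genes tested; SE from the fold change and F). Log2 CPM used a prior count of 2. The fit was checked on simulated data. Samples were grouped by labelled genotype, and replicates were separate mice; same-genotype libraries differed by chi-square per gene of 3.81 to 38.8 (the highest with the control MS13-3), so none was taken as a repeat deposit of another.

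The 10 genes and all lists were chosen with earlier results of these data known. Named genes were these 10, *Smarcc1* and list genes past the limits (or the 3 smallest p of a list). Also named were AP-1, EGR and NR4A relatives, *Atf4*, *Ddit3* and the 5 closest patterns. *Hspa5*, *Sesn2*, *Ptprc*, *Egr4*, *Npas4*, *Cxcr2*, *Ly6g*, *S100a8*, *S100a9*, *Csf3r*, *Retnlg*, *Col1a1* and *Col3a1* were added after their values were seen. The same holds for *Nr4a2* and *Nr4a3*. Alternatives were voom in limma 3.58.1, DESeq2 1.42.0, different scalings, filters and prior counts, the title prefix as covariate, MS13 mice alone, and leaving out each mouse. Positions are from GENCODE M21 and promoters from RefSeq. Intervals of fold changes are 95% intervals of the fit.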

Additional observations from a re-analysis of the deposited data

How the results depend on the processing

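*Atf3* was lower in Baf155 ΔMF under all 15 alternatives. Genes with an adjusted p under 0.05 (3 in edgeR) numbered 22 with DESeq2, 5 with limma-voom, 17 without a filter on low counts and 16 with the title prefix as covariate, 133 with MS13 mice alone (chosen after seeing the data; the lone control is assumed to vary like the mutants), and from 0 to 955 on leaving out a mouse. The 955 came without the control MS13-3, and the 0 came without the control MS15-2 (451 at an unadjusted p under 0.05) or the mutant MS13-2 (568). Genes past the limits of p and fold (135) numbered 266 without a filter and 205 with MS13 mice alone, and from 58 (without the control MS15-3) to 727 (without MS13-3). With the prefix as covariate, log2 fold changes moved to 0.46 for *Junb*, 1.47 for *Egr1*, 0.83 for *Ier2* and 0.13 for *Fos*. MS13 mice alone gave 0.46, 1.47, 0.83 and 0.13. The values match by construction, since only MS13 holds both genotypes, and they rest on MS13-3 as the only control. Leaving out a mouse gave ranges of -1.08 to -0.86 for *Atf3*, -0.70 to -0.35 for *Btg2*, -0.38 to 0.84 for *Egr1*, -0.91 to -0.0034 for *Fos*, -0.050 to 1.28 for *Fosb*, 0.07 to 0.57 for *Ier2*, -0.77 to -0.0004 for *Ier3*, -0.0060 to 0.16 for *Jun*, -0.08 to 0.36 for *Junb*, 0.05 to 0.38 for *Myc*, -1.18 to -0.62 for the log2 ratio of *Atf3* to the other 9 genes and -0.050 to 0.19 for the median of these 9. Rapid response genes past the limits numbered 2 to 4 (4 without MS13-3 or MS13-2). ATF4 and stress genes numbered 1 to 2 (2 without MS13-3 or MS14-2). Both are an alternative chosen after seeing the data. Over all genes the count was 727 without MS13-3, 69 without MS13-2 and 167 without MS14-2. The cause was not tested. Scaling by library size alone moved the median of all genes to -0.064. No paired analysis was possible because the genotypes share no numbered pairs of mice. With 3 mice per genotype and *Fosb* at 3 to 15 counts, depth limits the low genes.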
